A study of Mus musculus with 6 samples.

Results

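The genes described are 10 chaperones of the heat shock protein families that work in the cytosol and in mitochondria. They were taken by gene symbol from a count table of 16171 genes, and all 10 symbols were present: Hspa1a, Hspa1b, Hspa8, Hsph1, Dnajb1, Hsp90aa1, Hsp90ab1, Hspa9, Hspd1 and Hspe1. Of these, 9 passed the filter on low counts and were tested among 11480 genes. Hspa1a did not pass. The RNA came from Raw264.7 cells, an established mouse macrophage line labelled wild type, grown on either of 2 titanium surfaces. THCaP is titanium with a biomimetic calcium phosphate nanowire coating (3 libraries), and TH is titanium with titanate nanowires from alkaline heat treatment (3 libraries). Cells of both groups had 12 h on the surface, then 1 µg/mL lipopolysaccharide (LPS, a bacterial cell wall component) for 2 h, and were collected after a further 1 d. Because every library came from LPS-treated cells, no value here separates the surface from the response to LPS. No label states that replicates were separate cultures, so the p-values measure only the spread between these libraries, which may be technical. In bulk RNA of this kind, fewer cells with a transcript and less transcript per cell cannot be told apart.

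Chaperones of the Hsp70 family bind exposed stretches of unfolded proteins and release them in cycles driven by ATP. J-proteins such as Dnajb1 deliver clients and start ATP hydrolysis, nucleotide exchange factors such as Hsph1 reset the cycle, and Hsp90 takes over clients such as kinases and receptors at a late stage of folding. In mitochondria, Hspa9 pulls imported proteins across the inner membrane and Hspd1 with its lid Hspe1 encloses them for folding. In stressed cells the transcription factor Hsf1 binds heat shock elements, inverted repeats of the letters GAA, in the promoters of inducible members.

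Library totals ran from 28000099 to 30317108 counts. Of 10 macrophage markers, 9 averaged at least 5 CPM (a count relative to the library total, scaled by TMM factors). Their summed level was 3089 to 3332 CPM in THCaP libraries and 2944 to 3439 CPM in TH libraries. Summed markers of endothelial cells reached 2.91 to 4.84 CPM in THCaP and 5.23 to 6.39 CPM in TH libraries, and those of fibroblasts and osteoblasts 0.945 to 1.16 CPM in THCaP and 1.00 to 1.37 CPM in TH libraries. The endothelial sum was mostly Pecam1 (2.14 to 5.48 CPM over the 6 libraries). Lymphoid, neutrophil and epithelial markers stayed under 1 CPM in sum, and the neutrophil marker S100a8 was at 0 in every library. Only 4 of 5 lymphoid, 3 of 4 neutrophil and 1 of 4 epithelial markers were in the count table. On the first principal component of log2 CPM (60.5% of the variance), THCaP replicate 3 lay at 5.17, nearer to the TH libraries (-22.2 to -16.3) than THCaP replicates 1 and 2 (19.3 and 35.9). On the second (13.65% of the variance), TH replicate 1 lay apart at 21.9. TH replicates 2 and 3 lay there at -9.61 and -9.06, and the THCaP libraries at -1.475 to -0.552.

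Transcripts of the chaperones moved in different directions on the coated surface. The mitochondrial chaperonin gene Hspd1 was 1.43-fold higher and the Hsp90 gene Hsp90ab1 1.26-fold higher on THCaP, while the inducible Hsp70 gene Hspa1b was 1.96-fold lower and the exchange factor gene Hsph1 1.28-fold lower. Of the 9 tested members, 2 rose, 2 fell and 5 were not called by edgeR at an adjusted p under 0.05. Among all tested genes, 11.6% were called higher and 12.0% lower, 23.6% in all (1333 and 1376 genes, or 1904 and 1063 with scaling by library totals alone). With so few members, nothing particular to them is read from these counts. The 3 THCaP values lay wholly above the TH values for Hspd1 and Hsp90ab1 (22.1% of all tested genes did) and wholly below them for Hspa1b and Hsph1 (21.3%), 43.4% of tested genes in all. The median log2 fold change of the tested members was 0.02, against 0.0064 over all tested genes.

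**Figure D1:**
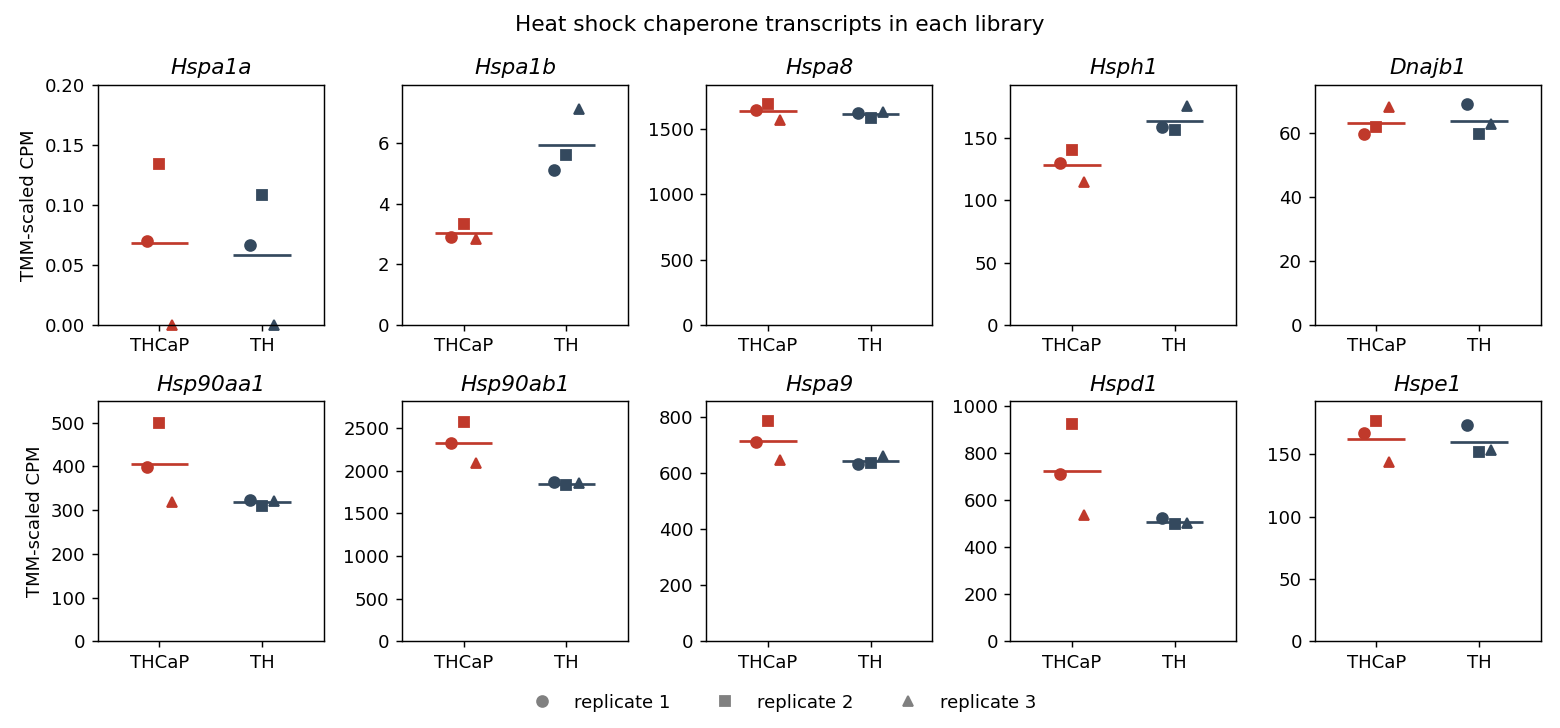
TMM-scaled CPM of each of the 10 chaperone genes in every library, THCaP on the left and TH on the right of each panel. Symbols mark the replicate number, horizontal lines the group mean, and each panel has its own linear scale from 0. The groups separate in Hspa1b, Hsph1, Hsp90ab1 and Hspd1, and THCaP replicate 3 lies next to the TH libraries in Hspd1 and Hsp90aa1.

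The inducible Hsp70 genes are a near-identical pair, and the upstream stretches that carry their heat shock element are shown. These stretches hold no annotated exon, so their likeness does not bear on how reads were given to each gene. Hspa1b lies on chromosome 17 at 34956436 to 34959238 and Hspa1a on chromosome 17 at 34969190 to 34972156, both on the minus strand and protein coding (GENCODE vM21, GRCm38). The 250 bases before each annotated start, from RefSeq on GRCm38.p6, are chr17:34959239-34959488 for Hspa1b and chr17:34972157-34972406 for Hspa1a, minus strand. Capitals mark a match to GAANNTTC, a heat shock element of 2 units.
Hspa1b: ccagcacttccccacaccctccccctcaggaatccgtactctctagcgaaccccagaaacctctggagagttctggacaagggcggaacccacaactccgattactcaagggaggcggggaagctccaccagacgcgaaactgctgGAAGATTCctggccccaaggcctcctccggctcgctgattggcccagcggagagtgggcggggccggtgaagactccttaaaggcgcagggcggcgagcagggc
Hspa1a: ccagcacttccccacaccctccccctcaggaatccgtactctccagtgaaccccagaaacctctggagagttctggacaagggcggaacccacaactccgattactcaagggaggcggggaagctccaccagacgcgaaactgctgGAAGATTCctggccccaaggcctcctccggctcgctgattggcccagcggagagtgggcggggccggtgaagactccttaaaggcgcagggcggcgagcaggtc
Of the 250 bases, 3 differed between the genes, and the match began 104 bases before the start in both.

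Hspa1b had 83, 100 and 83 counts in THCaP libraries 1, 2 and 3 and 153, 156 and 199 counts in TH libraries 1, 2 and 3. That is 2.91, 3.35 and 2.83 CPM on THCaP, against 5.11, 5.62 and 7.13 CPM on TH. Every THCaP library was below every TH library. The mean was 3.03 ± 0.278 CPM on THCaP and 5.96 ± 1.05 CPM on TH (SD, n = 3 each). The log2 fold change was -0.97 with an SE of 0.19 (edgeR adjusted p = 0.0089). Hspa1b kept this call in all 17 alternative settings, with log2 fold changes from -1.08 to -0.83 when each library was left out in turn. On the log2(FPKM + 1) scale, which understates the change of low genes, it was -0.55. Hspa1a had 2, 4 and 0 counts in the THCaP libraries and 2, 3 and 0 counts in the TH libraries. A library without a count still allows up to 3 counts (0.0990 to 0.107 CPM, for counting error only), so no difference in Hspa1a was detectable at this depth. Of the 100-base windows of the annotated Hspa1a transcripts, 47.1% occur unchanged in Hspa1b, so that reads from these stretches may have been given to either gene or to none. With the counts of both genes summed, the log2 fold change was -0.96 (edgeR adjusted p = 0.0095).

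Hspa8 (chromosome 9, 40800984 to 40810087, plus strand), the constitutive cytosolic Hsp70, was one of the most abundant transcripts of the cells. It stood at 1652, 1698 and 1569 CPM in THCaP libraries and 1627, 1589 and 1633 CPM in TH libraries. The groups overlapped, with THCaP replicate 3 the lowest of all 6 libraries. The log2 fold change was 0.02 (SE 0.07, edgeR adjusted p = 0.851), with a mean of 1640 ± 65.8 CPM on THCaP and 1616 ± 23.8 CPM on TH (SD, n = 3 each). Of its 100-base windows, 56.5% occur in transcripts of 7 other annotated genes, most of them in Gm15459, so part of its reads may belong to such copies. The ratio of Hspa1b to Hspa8, both in FPKM (fragments per kilobase of gene, scaled to library total), was 0.00132, 0.00148 and 0.00135 on THCaP and 0.00235, 0.00265 and 0.00327 on TH. It was lower in each THCaP library than in any TH library, and the two-sided exact permutation p of 0.1 (0.167 after Benjamini-Hochberg adjustment over 5 ratios) is the smallest that 3 against 3 libraries can give.

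Of the helpers of Hsp70, Hsph1 fell and Dnajb1 was not called. Hsph1 (chromosome 5, 149614287 to 149636376, minus strand) encodes Hsp110, a large Hsp70 relative that speeds the exchange of ADP for ATP and helps to dissolve aggregates. It stood at 130, 141 and 115 CPM in THCaP libraries and 159, 157 and 176 CPM in TH libraries. No THCaP library reached the lowest TH library. The mean was 128 ± 13.1 CPM on THCaP and 164 ± 10.1 CPM on TH (SD, n = 3 each), a log2 fold change of -0.35 (SE 0.09; edgeR adjusted p = 0.0278). The call was lost without TH replicate 2 (edgeR adjusted p = 0.0694), TH replicate 3 (0.117) or THCaP replicate 1 (0.0969), with log2 fold changes of -0.39, -0.30 and -0.36, and on log2(FPKM + 1) without a filter (limma adjusted p = 0.086). Dnajb1 (chromosome 8, 83608193 to 83612653, plus strand), the main heat-inducible cytosolic J-protein of the Hsp40 class, had 59.8, 61.8 and 68.4 CPM on THCaP and 69.1, 59.7 and 62.9 CPM on TH. The groups overlapped fully (log2 fold change -0.01, SE 0.09, edgeR adjusted p = 0.93), and the sign turned with scaling by library totals alone (0.04) and on FPKM scales (0.038 to 0.04). Relative to Hspa8 in FPKM, Hsph1 stood at 0.0258, 0.0272 and 0.0240 on THCaP and 0.0322, 0.0324 and 0.0353 on TH, again with no overlap (two-sided exact permutation p = 0.1, the smallest possible; 0.167 adjusted over the 5 ratios). For Dnajb1 relative to Hspa8 the two-sided exact permutation p was 0.6 (0.75 adjusted).

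The Hsp90 genes stood higher on THCaP, 1 of them past the threshold. Hsp90ab1 (chromosome 17, 45567775 to 45573271, minus strand), which encodes the constitutive Hsp90 beta, had 2325, 2568 and 2089 CPM in THCaP libraries and 1865, 1831 and 1855 CPM in TH libraries. Each THCaP library exceeded each TH library, and the TH libraries lay close together. The mean was 2328 ± 240 CPM on THCaP and 1850 ± 17.7 CPM on TH (SD, n = 3 each), with a log2 fold change of 0.33 (SE 0.09; edgeR adjusted p = 0.0264). The call was lost without TH replicate 2 (edgeR adjusted p = 0.091), TH replicate 3 (0.0973), THCaP replicate 1 (0.0993) or THCaP replicate 2 (0.0586), while the log2 fold change stayed between 0.26 and 0.40. Hsp90aa1 (chromosome 12, 110690605 to 110702728, minus strand), which encodes the more inducible Hsp90 alpha, had 399, 498 and 319 CPM in THCaP libraries and 324, 310 and 322 CPM in TH libraries. THCaP replicate 3 lay among the TH libraries, and the other two lay above them. Hsp90aa1 was not called (log2 fold change 0.35, SE 0.14, edgeR adjusted p = 0.092). Without THCaP replicate 3 its log2 fold change was 0.50 (edgeR adjusted p = 0.00365), and without THCaP replicate 2 it was 0.17 (0.256). DESeq2 on all libraries gave an adjusted p of 0.0473. Of the 100-base windows of Hsp90aa1, 40.7% occur in other annotated genes, most in Gm12346, and none of those of Hsp90ab1 do. The ratio of Hsp90aa1 to Hsp90ab1 in FPKM was 0.152 ± 0.0181 on THCaP and 0.151 ± 0.00216 on TH (SD, n = 3 each; two-sided exact permutation p = 1).

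**Figure D2:**
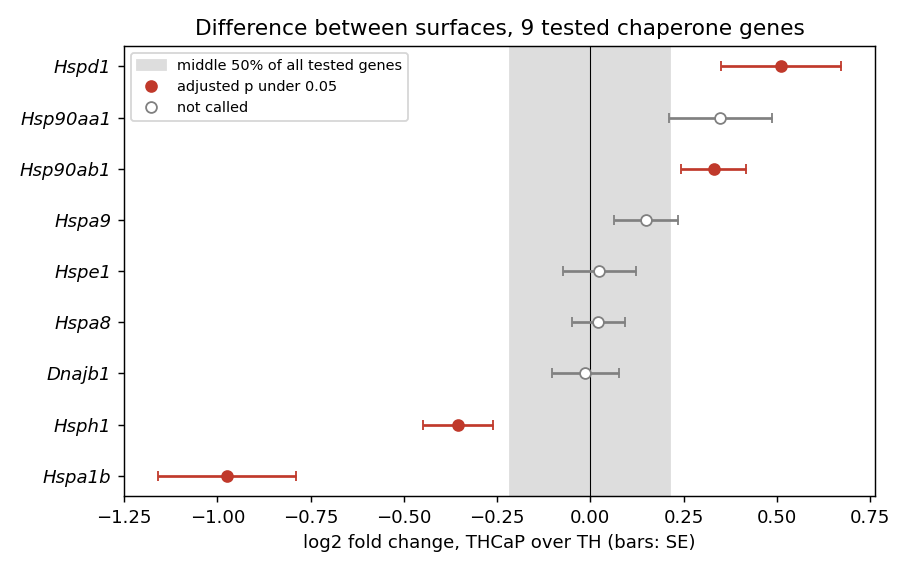
Log2 fold change of THCaP over TH for the 9 tested chaperone genes, with bars for the standard error. The grey band holds the middle 50% of all tested genes, from -0.22 to 0.21. Filled points passed edgeR's adjusted p under 0.05: Hspd1 and Hsp90ab1 above the band, Hsph1 and Hspa1b below it.

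Of the mitochondrial members, Hspd1 rose, while its partner Hspe1 and Hspa9 were not called. Hspd1 and Hspe1 are neighbours on chromosome 1 that are read in opposite directions, Hspd1 from 55077835 to 55088243 on the minus strand and Hspe1 from 55088132 to 55091307 on the plus strand. Their annotated ends overlap by 112 bases, and since no strand setting of the counting is given, reads from that overlap cannot be assigned. The 30 bases shown, chr1:55088053-55088082 on the plus strand of GRCm38.p6, lie 95 to 66 bases before the RefSeq start of Hspe1. They are also upstream of one of the 2 RefSeq starts of Hspd1, and inside an annotated exon of Hspd1 from the other start. Capitals mark overlapping matches to TTCNNGAA and GAANNTTC, a run of 4 alternating units.
Hspe1 and Hspd1: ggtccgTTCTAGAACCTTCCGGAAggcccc

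Hspd1, the Hsp60 barrel, had 714, 924 and 536 CPM in THCaP libraries and 525, 499 and 502 CPM in TH libraries. The groups did not overlap, but THCaP replicate 3 was close to the TH libraries and THCaP replicate 2 far above them. The mean was 725 ± 194 CPM on THCaP and 509 ± 14.3 CPM on TH (SD, n = 3 each). The log2 fold change of 0.51 had an SE of 0.16 (edgeR adjusted p = 0.0463). This call lay near the threshold. It was lost without TH replicate 1, 2 or 3 (edgeR adjusted p = 0.0933, 0.132 and 0.13), THCaP replicate 1 (0.109) or THCaP replicate 2 (0.0907), with limma-voom (0.0594), and on log2(FPKM + 1) without a filter (limma, 0.123). The log2 fold change was 0.30 without THCaP replicate 2 and 0.69 without THCaP replicate 3 (edgeR adjusted p = 0.000973).

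Hspe1, the Hsp10 lid, had 167, 176 and 143 CPM in THCaP libraries and 174, 152 and 154 CPM in TH libraries. The groups overlapped, and the log2 fold change was 0.02 (SE 0.10, edgeR adjusted p = 0.876). In FPKM, Hspd1 stood at 1.27, 1.55 and 1.11 times the level of Hspe1 in THCaP libraries and at 0.897, 0.977 and 0.969 times in TH libraries. The ratio was above 1 in every THCaP library and below 1 in every TH library, a log2 difference of 0.46 (two-sided exact permutation p = 0.1, the smallest possible; 0.167 adjusted over the 5 ratios). Scaling between libraries cancels in this ratio. It was chosen for a closer look after the values of both genes had been seen. Its log2 difference was 0.33 to 0.57 with each library left out in turn. Of the 100-base windows, 23.4% of those of Hspd1 and 20.4% of those of Hspe1 occur in other annotated genes, so counts of both may include or lose reads of such copies.

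**Figure D3:**
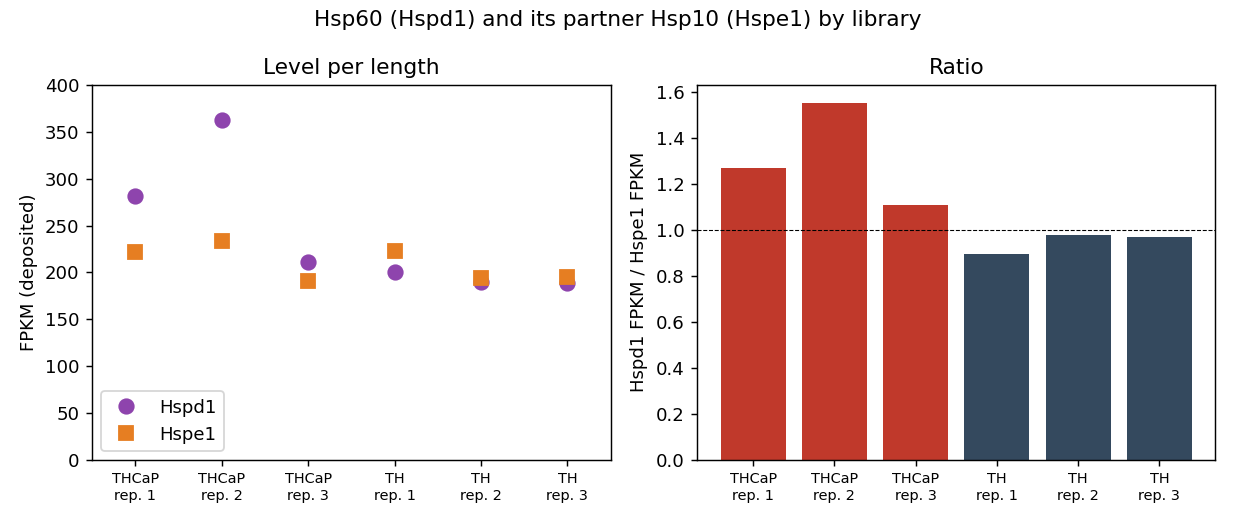
Left, deposited FPKM of Hspd1 and Hspe1 in each library. Right, the ratio of the first gene to the second, as bars from 0 with a dashed line at 1. The ratio ran from 1.11 to 1.55 in THCaP libraries and from 0.897 to 0.977 in TH libraries.

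Hspa9 (chromosome 18, 34937414 to 34954357, minus strand), the mitochondrial Hsp70 also called mortalin, had 712, 786 and 648 CPM in THCaP libraries and 635, 638 and 661 CPM in TH libraries. THCaP replicate 3 fell within the TH range and the other two above it. The gene was not called (log2 fold change 0.15, SE 0.09, edgeR adjusted p = 0.225), nor was it in any of the 17 alternative settings.

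Among the THCaP libraries, 8 of the 9 tested members stood highest in replicate 2, next in replicate 1 and lowest in replicate 3, and 33.5% of all tested genes had that order. Dnajb1 was the exception, with its highest THCaP value in replicate 3. Hspa1b had 83 counts in both THCaP replicates 1 and 3, so their order rests on library scaling alone (2.91 and 2.83 CPM). The order was the same in members that rose (Hspd1, Hsp90ab1) and in those that fell (Hspa1b, Hsph1), and it is the order of these libraries along the first principal component. Its part in the differences between surfaces was not tested. The members together took 0.629%, 0.696% and 0.56% of all counts in THCaP libraries 1, 2 and 3 and 0.531%, 0.516% and 0.523% in TH libraries.

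Compared per length, the levels fell into 4 tiers. On THCaP, Hsp90ab1 led with 945 ± 95.1 FPKM, followed by Hspa8 with 793 ± 30.4 FPKM (SD, n = 3). On TH, Hspa8 led with 754 ± 10.1 FPKM and Hsp90ab1 followed with 725 ± 8.39 FPKM. The lowest THCaP library of Hsp90ab1 (850 FPKM) lay above the highest of Hspa8 (819 FPKM), and the highest TH library of Hsp90ab1 (734 FPKM) lay below the lowest of Hspa8 (743 FPKM). The order of these leading genes was thus reversed between the surfaces, as a description of deposited values. Because 56.5% of the 100-base windows of Hspa8 occur in other annotated genes, its level is uncertain, and which gene led on each surface is not secure. The mitochondrial chaperones and Hsp90aa1 came next. Hspd1 averaged 285 ± 75.7 FPKM on THCaP and 193 ± 6.29 FPKM on TH, Hspa9 239 ± 22.5 and 208 ± 3.17 FPKM, and Hspe1 215 ± 22.1 and 204 ± 16.4 FPKM. These 3 overlapped with their neighbours in the order on THCaP, and on TH Hspe1 overlapped with both others. Hsp90aa1 averaged 145 ± 31.7 FPKM on THCaP and 110 ± 2.6 FPKM on TH. The third tier held Hsph1 (20.4 ± 2.04 FPKM on THCaP, 25.1 ± 1.39 FPKM on TH) and Dnajb1 (20.0 ± 1.43 and 19.4 ± 1.52 FPKM), whose values overlapped on THCaP and not on TH. Hspa1b, at 1.1 ± 0.0977 FPKM on THCaP and 2.08 ± 0.351 FPKM on TH, and Hspa1a, under 0.05 FPKM in every library, formed the lowest.

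Promoter windows of 300 bases (250 before to 50 after a RefSeq start) were at hand for 6 of the 10 members. They were searched on both strands for the heat shock elements GAANNTTC and TTCNNGAA, each of which is its own reverse complement, and for longer runs, GAANNTTC followed by NNGAA and TTCNNGAA followed by NNTTC, which contain the short ones. Some members have 2 windows, 9 in all. A short match was present in 6 of the 9 windows, those of Hspa1a, Hspa1b, Hspe1 and Hsph1 and 1 of Hspd1, against 15.1% of all 32851 windows and 11.8% of those of tested genes. A run of 3 units was present in 4 windows, of Hspd1, Hspe1 and Hsph1, against 0.603% of all windows and 0.467% of those of tested genes. These windows are not independent, since Hspd1 and Hspe1 share 1 site, both windows of Hsph1 hold the same sites, and the windows of Hspa1a and Hspa1b are near-identical. Hsph1 has a further short match to TTCNNGAA at chr5:149636362-149636369, in an annotated exon. It begins 33 or 54 bases before a RefSeq start. The run of 3 units of Hsph1 lies after its start, within chr5:149636287-149636316 on the minus strand of GRCm38.p6, also in an annotated exon, with the run in capitals.
Hsph1: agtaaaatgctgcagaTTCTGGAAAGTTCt
Members that rose, fell or were not called all occur among those with a match, and neither window of Dnajb1 held these letters.

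No transcript of the heat shock factors passed the test. Of 4 tested genes of this list (median log2 fold change -0.19), 0 were called by edgeR, with 0 higher and 1 lower at an unadjusted p under 0.05. DESeq2 called 0 higher and 1 lower, and limma-voom 0. Hsf1, the main activator of heat shock genes, averaged 63.7 ± 2.56 CPM on THCaP and 60.8 ± 5.47 CPM on TH (SD, n = 3 each; log2 fold change 0.07; edgeR adjusted p = 0.603). Hsf2, a relative that can pair with Hsf1, was at 29.3, 30.8 and 28.9 CPM in THCaP libraries and 31.7, 39.8 and 37.5 CPM in TH libraries. The groups did not overlap, and the log2 fold change was -0.29 (SE 0.10, edgeR adjusted p = 0.062). Hsbp1, which encodes a small protein that binds Hsf1, averaged 71.6 CPM on THCaP and 76.6 CPM on TH (edgeR adjusted p = 0.372).

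Beyond the 10 members, 84 other cytosolic and mitochondrial chaperone genes, each counted once, were tested. Of these, 7 rose, 12 fell and 65 were not called, with a median log2 fold change of 0.002. Over all tested genes 11.6% rose and 12.0% fell, and nothing particular to these lists is read from their counts. The counts of most lists moved with the libraries used, so counts with 1 of the 6 libraries left out are given beside them. Those runs called 291 to 2145 of all genes higher and 465 to 2020 lower. Among other Hsp70 relatives and exchange factors (14 tested), 1 rose and 2 fell, with a median of 0.05 (0 to 4 higher and 1 to 2 lower with 1 library left out). Hspa4l, a Hsp110 relative of Hsph1, was at 90.5, 67.6 and 96.4 CPM in THCaP libraries and 138, 171 and 191 CPM in TH libraries. The groups were far apart, and the fall of 0.97 on the log2 scale (SE 0.15, edgeR adjusted p = 0.00488) held with every library left out in turn. Bag3, an exchange factor that links Hsp70 to autophagy, averaged 76.2 ± 2.75 CPM on THCaP and 95 ± 2.71 CPM on TH (log2 fold change -0.32, SE 0.07, edgeR adjusted p = 0.0173), a call lost on leaving out TH replicate 2 or 3 or THCaP replicate 1 (up to 0.0721). Hspbp1, an exchange factor that acts on Hsp70, rose by 0.51 on the log2 scale, with overlapping groups and an edgeR adjusted p of 0.0459 that held only without THCaP replicate 3 when libraries were left out (up to 0.154).

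Of 15 tested cytosolic J-proteins 1 rose and 3 fell, with a median of -0.05 (1 to 3 higher and 0 to 4 lower with 1 library left out). Dnajc9, a J-protein that handles histones, rose to 34.5 ± 9.03 CPM on THCaP, against 18 ± 0.472 CPM on TH (SD, n = 3 each; a difference of 0.94 on the log2 scale, SE 0.17, edgeR adjusted p = 0.00753), and held without each library. Dnajb4 (-0.48, SE 0.09) and Dnajb2 (-0.46, SE 0.10) fell, and each lost its call without TH replicate 3 or THCaP replicate 1 (edgeR adjusted p up to 0.0539 and 0.0608). Dnajb6 fell by 0.26 (SE 0.08), a call lost without TH replicate 2 or 3 or THCaP replicate 1 or 2 (up to 0.169). Dnaja4 was not tested, with 2 counts over the THCaP and 0 over the TH libraries.

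Of 19 tested Hsp90 co-chaperones 2 rose and 1 fell, and the median was 0.17, against 0.0064 over all tested genes. Fkbp4, an immunophilin that carries steroid receptors on Hsp90, had 249.3, 315.6 and 193.4 CPM in THCaP libraries and 187.2, 170.8 and 170.6 CPM in TH libraries. All THCaP libraries were above all TH libraries, replicate 3 by the least (log2 fold change 0.52, SE 0.15, edgeR adjusted p = 0.0355). Rpap3, a scaffold for Hsp90 in the assembly of large complexes, rose by 0.34 (SE 0.10). Both calls held only without THCaP replicate 3 when libraries were left out in turn (edgeR adjusted p up to 0.115 and 0.162). Sugt1, a co-chaperone needed for kinetochore assembly, fell by 0.23 (SE 0.07, edgeR adjusted p = 0.0471), a call lost without any single library (up to 0.166). DESeq2 called 4 of the list higher and limma-voom 2. Without THCaP replicate 3 edgeR called 8 higher, without TH replicate 1 it called 1, and without any of the other 4 libraries it called 0. The count lower was 0 in all 6 runs.

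Mitochondrial chaperones and proteases (15 tested) included 2 genes that rose and 4 that fell, with a median of -0.01 (0 to 3 higher and 1 to 5 lower with 1 library left out). Those that fell included Clpx, the unfoldase of the ClpXP protease, at 90.6 ± 2.66 CPM on THCaP and 131 ± 15 CPM on TH (SD, n = 3 each; a fall of 0.53 on the log2 scale, edgeR adjusted p = 0.00753), which held without each library. Grpel2, an exchange factor of Hspa9, fell by 0.56 (SE 0.11, edgeR adjusted p = 0.00936; 0.0506 without THCaP replicate 1). Afg3l2, a subunit of an inner membrane protease, fell by 0.36 (SE 0.08), a call lost on leaving out TH replicate 2 or 3 or THCaP replicate 1 (edgeR adjusted p up to 0.0769). Dnlz, which keeps Hspa9 soluble, rose by 0.49 (SE 0.15, edgeR adjusted p = 0.0397), and this held only without THCaP replicate 3 (up to 0.141 otherwise). In the cytosolic chaperonin TRiC and its helper prefoldin (14 tested) 1 gene rose and 0 fell, with a median of 0.03. At an unadjusted p under 0.05, 2 genes of that list were higher and 1 was lower, and DESeq2 and limma-voom called 0 lower. With 1 library left out 0 to 3 were higher and 0 to 1 lower, both at their most without THCaP replicate 3. Cct6a, a TRiC subunit, averaged 269 ± 62.5 CPM on THCaP and 189 ± 5.45 CPM on TH (log2 fold change 0.51, SE 0.14, edgeR adjusted p = 0.0316), and lost its call without any TH library or THCaP replicate 1 (up to 0.104).

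Of 12 tested genes known to be induced by heat, which repeat members of the lists above, 1 rose and 5 fell (median -0.17). Over all tested genes 11.6% rose and 12.0% fell. With DESeq2, with scaling by library totals, or without THCaP replicate 3, 3 of the list were higher and 5 lower. The count lower was 3 without TH replicate 3 or THCaP replicate 1, and in those runs 0 were higher. Dedd2, a nuclear death effector protein, had 38.5, 29.8 and 45.8 CPM in THCaP libraries and 64.1, 63.6 and 69.5 CPM in TH libraries. The groups were well separated (log2 fold change -0.79, SE 0.14, edgeR adjusted p = 0.00753) and remained called without each library. Hspa4l, Dnajb4 and Fkbp4, given above, were the other called genes of this list of at least 5 CPM with the largest changes. Small heat shock proteins hold unfolded proteins without using ATP. Of 9 listed, Hspb1 (also on the heat-inducible list) and Hspb2 were not found under these symbols in the count table. A further 3 did not pass the filter on low counts. Of 4 tested, 0 were called by edgeR, by DESeq2 or by limma-voom, and 1 was lower at an unadjusted p under 0.05. Hspb6 averaged 8.21 CPM on THCaP and 8.2 CPM on TH, Hspb11, in mammals known as a subunit of ciliary transport, 15.6 CPM on THCaP and 19.6 CPM on TH (log2 fold change -0.33, edgeR adjusted p = 0.0716), and Cryab had 0 counts over the THCaP and 5 over the TH libraries.

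**Figure D4:**
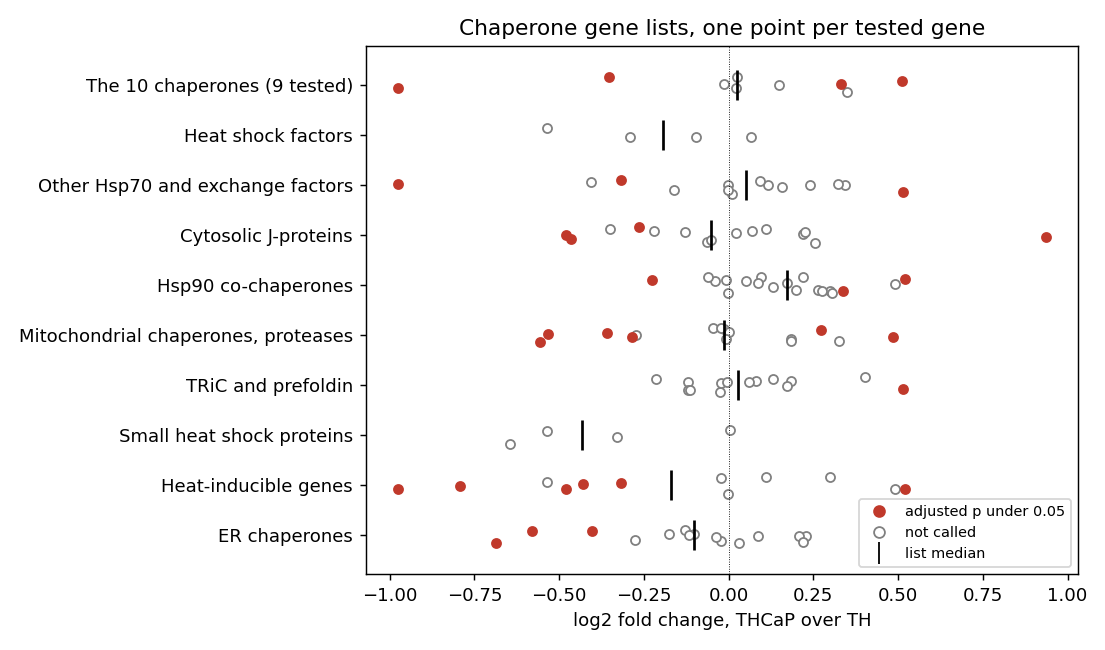
Log2 fold change of THCaP over TH for each tested gene of the 10 chaperones and of 9 related lists, with a black line at each list's median and filled points for edgeR's adjusted p under 0.05. Filled points lie on both sides of 0 in the 10 chaperones, and the 3 filled points of the ER chaperones lie below 0. Nothing particular to either list is read from these counts. The heat-inducible list repeats genes of other lists.

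The endoplasmic reticulum has its own chaperones. Of 15 tested, 3 fell and 0 rose by edgeR (median -0.10). Over all tested genes 11.6% rose and 12.0% fell, and nothing particular to this list is read from its counts. At an unadjusted p under 0.05, 0 of the list were higher, and DESeq2 and limma-voom called 0 of it higher. Without THCaP replicate 3, however, 3 were higher and 3 lower, and without THCaP replicate 2, 0 were higher and 6 lower. Hspa5, the Hsp70 of this compartment, had 1882, 2042 and 1778 CPM in THCaP libraries and 2647, 3074 and 3453 CPM in TH libraries. The groups did not overlap (log2 fold change -0.69, SE 0.10, edgeR adjusted p = 0.00473), while those of its relatives Hspa8 and Hspa9 did, and the call held without each library. Sil1, its exchange factor, fell by 0.58 (SE 0.10) and held likewise, and Dnajb9, a J-protein partner, fell by 0.40 (SE 0.10, edgeR adjusted p = 0.0252; up to 0.108 on leaving out TH replicate 2 or 3 or THCaP replicate 1). Whether the compartments differ was not tested.

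The likeness of other genes to a member was measured as the root mean square difference of centred log2 CPM over the 6 libraries, among 9493 genes of at least 5 CPM. The nearest to Hspd1 were Idh3a (0.032), Fkbp4 (0.0327) and Rbbp7 (0.0345), and Hspe1 lay at 0.271. The nearest to Hspa8 were Vps18 (0.0113), Npm1 (0.0135) and Snx3 (0.0203). The nearest to Hspa1b were Odc1 (0.0944), Tmem170 (0.101) and Nckap1 (0.14). Among the other tested members, Hsph1 lay nearest to Hspa1b, at 0.315, and Hspd1 farthest, at 0.748. These distances describe 6 libraries in 2 groups and carry no test.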

How the data were processed

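RNA of 6 libraries was sequenced. The submitters' processing notes name HTSeq, HISAT2 and fastp, and build mm10. For their versions, the annotation and the strand setting: not given in the sources used here. The deposited counts are whole reads per gene symbol, without normalisation. The deposited FPKM values, scaled by gene length and library total, served for levels between genes and for alternatives.

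Counts were analysed with R 4.3.3 and edgeR 4.0.16: filterByExpr (minimum count 10, minimum total 15), TMM factors, and a robust quasi-likelihood F test of THCaP against TH without covariates, Benjamini-Hochberg adjusted over all 11480 tested genes and called under 0.05. Standard errors were taken as |log2 fold change| over the root of F. The fit was tested on simulated data with the same dispersion for every gene, which does not cover the uneven spread between these libraries. There were 17 alternatives: each of the 6 libraries left out, and 11 others, which changed the scaling, filter or block or summed Hspa1a with Hspa1b in edgeR, or used DESeq2 1.42.0, limma-voom (limma 3.58.1), or limma on log2 FPKM. Library totals were 28000099 to 30317108 counts. The floors given for libraries without a count cover counting error only, while the standard errors also include spread between libraries.

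All 10 members were named. From each other list, up to 4 called genes of at least 5 CPM with the largest change were named (up to 2 of the highest level where none was called), and Hsf1 and Hsf2 in every case. Members and lists were chosen with earlier results of these data known. Replicates were checked against counting noise and exceeded it (chi-square per degree of freedom 3.84 to 48.4); all were kept as separate samples. Sequences came from RefSeq (GRCm38.p6) and gene positions from GENCODE vM21 (GRCm38, for which mm10 is another name). The 100-base windows came from GENCODE transcripts.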

Additional observations from a re-analysis of the deposited data

How the results depend on the processing

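Hspa1b kept its direction and call in all 17 alternatives, and Hsp90ab1, Hsph1 and Hspd1 kept their direction in all 17. Hsp90ab1 and Hsph1 each lost the call in 4 and Hspd1 in 7. Runs that leave out a library hold fewer samples, and the causes of the lost calls were not tested. Members called higher were 1 with limma-voom and 1 with log2(FPKM + 1) without a filter, where 1 was called lower. With 1 library left out in turn they numbered 0 to 3 higher and 1 to 2 lower. Over all genes, log2(FPKM + 1) without a filter called 766 higher and 528 lower, and leaving out 1 library gave 291 to 2145 higher and 465 to 2020 lower. Scaling by library totals alone gave 1904 genes higher and 1063 lower, against 1333 and 1376 with TMM factors, and the median of all genes was 0.059 in place of 0.0064. Dnajb1 changed sign with library totals (0.04), log2(FPKM + 1) with and without a filter (0.038 each) and log2(FPKM + 0.1) (0.04), and ran from -0.071 to 0.045 with libraries left out, as did Hspe1 from -0.04 to 0.105 and Hspa8 from -0.005 to 0.052. The log2 difference of the ratio of Dnajb1 to Hspa8 ran from -0.121 to 0.021, and that of Hsp90aa1 to Hsp90ab1 from -0.088 to 0.085.

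Same-numbered libraries did not deviate together (r of -0.02, -0.07 and 0.06 for numbers 1, 2 and 3), so the numbers are not taken as pairs. With the replicate block 2 members were higher and 2 lower, and 1424 genes were higher and 1457 lower. Hspa1a was tested only without a filter, on counts and on log2(FPKM + 1), and was called in neither.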
